A study of Mus musculus with 49 samples.

Results

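Bulk bone marrow RNA from HuHER2 transgenic mice was compared between mice injected with BP, an iron-containing nanoparticle preparation, and mice injected with PBS, the saline vehicle. The members were chosen by organ, treatment and library type from the labels. They are 6 of the 49 libraries in the series, 3 from BP mice and 3 from PBS mice, each library from a different mouse. All mice, the PBS group included, carried the HuHER2 transgene and a palpable primary mammary tumor, and palpation began at 7 months of age. BP mice received 5 mg Fe per mouse, and PBS mice received no iron. The design text puts the collection at 7 days after the injection, whereas the treatment label speaks of 31 days for a subset of a larger cohort. The promoter that drives the transgene and the strain background are not given in the sources used here. The design text describes the marrow of BP mice as divided into equal sections, with RNA from one of them used for the bulk library and the other sorted magnetically. The replicate numbers name mice within a group and do not pair a BP mouse with a PBS mouse.

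Bone marrow is the site of blood formation. Stem and progenitor cells there give rise to neutrophils, monocytes, red cells, platelets and B lymphocytes, supported by stromal cells that secrete CXCL12. Marrow macrophages surround developing red cells, engulf their expelled nuclei, degrade worn-out red cells and return iron to plasma transferrin. Iron that reaches the macrophage cytosol is stored in ferritin, made of heavy (Fth1) and light (Ftl1) subunits, or exported by ferroportin (Slc40a1). Developing red cells take up transferrin-bound iron through the transferrin receptor (Tfrc) and build it into heme, starting with the enzyme Alas2. The RNAs of these genes carry iron-responsive elements, short hairpins bound by iron regulatory proteins when iron is scarce. In the 5′ UTR the bound hairpin lowers translation, and in the 3′ UTR of Tfrc it protects the RNA from decay. Among these genes, Tfrc is therefore the one in which the hairpin is known to act on RNA amount, the quantity measured here.

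The hairpins of these 5 genes are shown because the iron genes described further on are read through them. They were found in the GENCODE M21 transcripts (GRCm38) on the transcript strand as a C, any 5 bases and the loop CAGTG plus any base, with 5 base pairs in the upper stem and at least 3 of 5 in the lower stem. The same search found a match in 0.186% of 141767 transcripts and in 95 of 21901 protein-coding genes, or 0.434%. A match is a description of the sequence. Each is written 5′ to 3′ over 27 bases, with the 6-base loop in capitals.
Fth1, 5′ UTR, chr19:9982733-9982759, plus strand: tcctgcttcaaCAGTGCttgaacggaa
Ftl1, 5′ UTR, chr7:45459780-45459806, minus strand: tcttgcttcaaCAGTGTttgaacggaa
Slc40a1, 5′ UTR, chr1:45925466-45925492, minus strand: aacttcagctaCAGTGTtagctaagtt
Alas2, 5′ UTR, chrX:150547459-150547485, plus strand: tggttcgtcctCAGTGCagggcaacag
Tfrc, 3′ UTR, chr16:32631220-32631246, plus strand: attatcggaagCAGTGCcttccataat
Tfrc, 3′ UTR, chr16:32631599-32631625, plus strand: attatcgggagCAGTGTcttccataat
Tfrc, 3′ UTR, chr16:32631664-32631690, plus strand: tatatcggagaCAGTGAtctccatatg
Tfrc, 3′ UTR, chr16:32631711-32631737, plus strand: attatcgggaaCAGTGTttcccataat
The 4 Tfrc elements lie in a single exon.

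The libraries held 11289685 to 15161776 estimated counts, and 19326 to 20488 genes had at least 1 count. A gene with no count could lie at up to 0.198 to 0.266 CPM, the count scaled to library size, by the limit of 3 counts, which covers counting error only. The hemoglobin genes took 13.7%, 15.05% and 19.5% of counts in BP marrow and 14.4%, 15.5% and 16.3% in PBS marrow (two-sided exact permutation p = 0.9, where 0.1 is the smallest that 3 against 3 mice can give). The markers of the labelled tissue were present in all 6 libraries. The neutrophil marker Ngp lay between 6125 and 9096 CPM, Mpo of granulocyte precursors between 1715 and 2013 CPM, and the erythroid enzyme Alas2 between 2234 and 3364 CPM. Kit of progenitors lay between 60.4 and 68.9 CPM, Vpreb1 of B cell precursors between 9.46 and 29.98 CPM, and the platelet gene Pf4 between 46.5 and 188 CPM. BP mouse 3 stood apart from the other 5 libraries. Its mean correlation with them was 0.9635, against 0.9768 to 0.979 for the others, and it lay at 59 on a first principal component on which the others lay between -16.9 and -8.6. Liver-made Alb (albumin) had 1.58 CPM in BP mouse 3 and between 212 and 246 CPM in each of the other 5.

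Marrow RNA profiles of BP and PBS mice differed little beyond the spread between mice. Of 13969 genes tested, 1 was called at an adjusted p under 0.05 (edgeR's quasi-likelihood test with Benjamini-Hochberg adjustment), which is 0.00716%. The gene, Gm21887, was higher in BP marrow, and no gene was called lower. With 1 call among all genes, the lack of a call in any gene list below says little about that list. An unadjusted p under 0.05 was reached by 173 genes (1.24%), of which 91 (0.651%) were higher and 82 (0.587%) lower in BP marrow. The 1.24% is below the share of 0.05 that evenly spread p-values would give. A gene list without such a p is thus not shown to be unchanged. The BP and PBS libraries did not overlap for 827 genes (5.92%), of which 426 (3.05%) were higher and 401 (2.87%) lower in BP marrow. The median log2 fold change (BP over PBS) was 0.005, and 51.4% of genes lay above 0. For 9306 genes (66.6%) the 95% interval of the fold change lay wholly within 1.5-fold in either direction, so a larger change lies outside the interval for those genes. For the remaining genes the interval reached beyond 1.5-fold, because it was wide, because the estimate lay away from 0, or both. DESeq2 called 4 genes, and edgeR without the robust estimate of the spread called 0.

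Gm21887 (ENSMUSG00000095562) lies on chromosome X between positions 170009659 and 170019281 in GRCm38. RefSeq lists this name as a synonym of Erdr1. It had 15.6, 10.9 and 11.2 CPM in BP marrow, against 4.35, 3.49 and 3.24 CPM in PBS marrow. All 3 BP mice lay above all 3 PBS mice, and the fold was 3.39 (log2 fold change 1.76 ± 0.21 SE, adjusted p = 0.045). The call was lost without any single library except BP mouse 3, with adjusted p up to 0.334, and it was lost with the non-robust spread. A near copy of the locus, Gm47283, lies on chromosome Y between 90784738 and 90816464, so the counting may have divided reads between the copies. Gm47283 had 163, 137 and 226 CPM in BP marrow and 123, 138 and 188 CPM in PBS marrow, and the groups overlapped (log2 fold change 0.23, 95% interval -0.32 to 0.77).

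In spleen, from the same mice as the marrow, Gm21887 had 11.1, 2.89 and 6.68 CPM in BP mice and 2.18, 0.844 and 1.47 CPM in PBS mice, scaled by library totals. Its log2 fold change in spleen was 2.19 (95% interval 1.03 to 3.34, adjusted p = 1). In lung the values ran the other way, at 1.04, 0.806 and 0.889 CPM in BP mice and 2.38, 1.65 and 1.19 CPM in PBS mice (log2 fold change -0.89, 95% interval -1.81 to 0.04). Lymph node had 3.36, 2.78 and 3.46 CPM in BP mice and 1.21, 0.898 and 2.43 CPM in PBS mice (log2 fold change 0.94, 95% interval -0.08 to 1.95). Tumor had 1.75, 0.864 and 11.3 CPM in BP mice and 1.14, 2.66 and 1.03 CPM in PBS mice (log2 fold change 1.47, 95% interval -0.75 to 3.68). In liver the gene was too low to be tested, at 0.392, 0.745 and 1.87 CPM in BP mice and 0, 0.615 and 2.34 CPM in PBS mice. In spleen and lymph node, as in marrow, every BP mouse lay above every PBS mouse, in lung every BP mouse lay below, and in tumor and liver the groups overlapped.

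**Figure D1:**
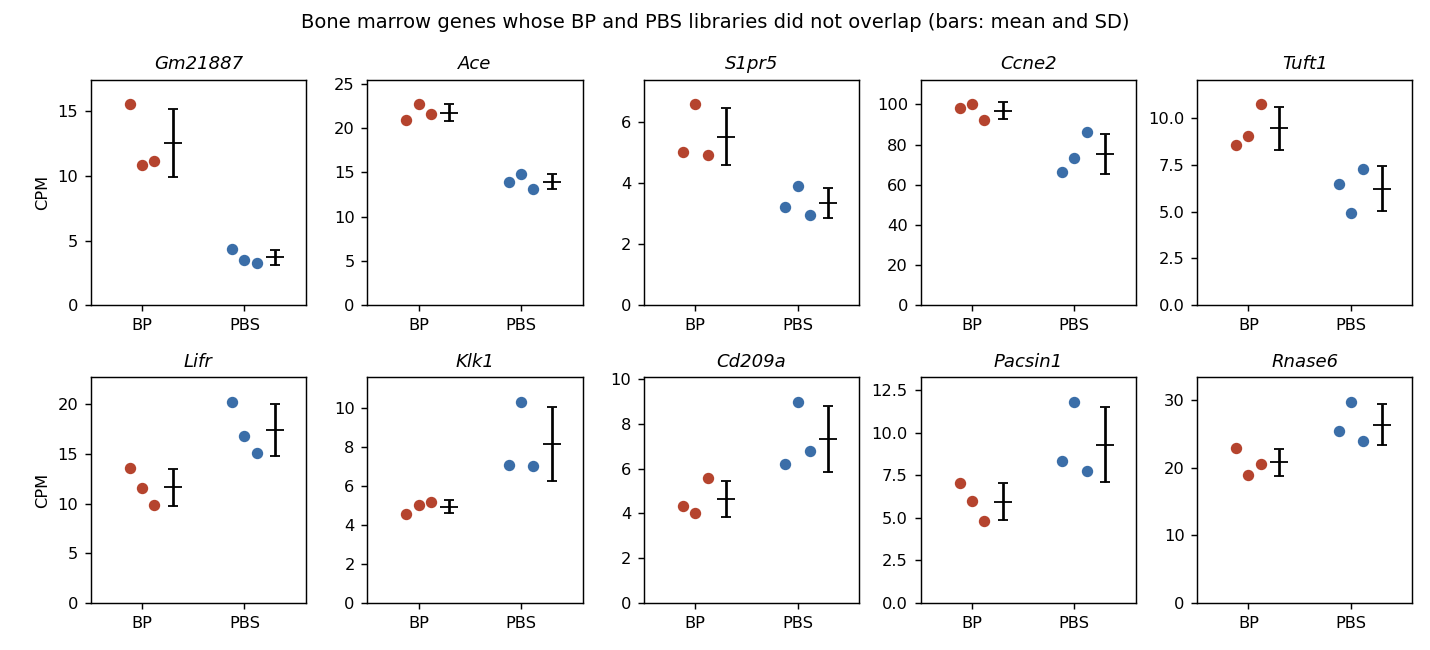
Level in CPM (vertical axes, from 0) of 10 genes whose BP (red, left) and PBS (blue, right) marrow libraries did not overlap; points are mice, bars the mean and SD of 3 mice. Gm21887, at 10.9 to 15.6 CPM in BP and 3.24 to 4.35 CPM in PBS marrow, passed the adjusted test, and the other 9 did not.

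No iron gene was called by the adjusted test, which called 0.00716% of all genes. None of the 29 tested genes of iron uptake, storage and export was called, their median log2 fold change was 0.01, and the interval lay within 1.5-fold for 23 of them (79.3%, against 66.6% of all genes). Ferritin heavy chain Fth1 had 1152, 1436 and 1729 CPM in BP marrow and 1254, 1367 and 1524 CPM in PBS marrow. The groups overlapped, with a log2 fold change of 0.06 (95% interval -0.27 to 0.38). Ferritin light chain Ftl1 had 2343, 2478 and 3273 CPM in BP marrow and 2407, 2377 and 2672 CPM in PBS marrow (log2 fold change 0.12, 95% interval -0.19 to 0.43). In both ferritin genes the highest library was BP mouse 3, and without it the log2 fold changes were -0.11 for Fth1 and -0.05 for Ftl1.

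Ferroportin, Slc40a1, the only known cellular iron exporter in mammals, had 194, 194 and 190 CPM in BP marrow and 199, 166 and 183 CPM in PBS marrow (log2 fold change 0.08, 95% interval -0.13 to 0.29). Tfrc had 741, 875 and 748 CPM in BP marrow and 734, 706 and 750 CPM in PBS marrow. Its log2 fold change was 0.11 (95% interval -0.12 to 0.34), so neither a rise nor a fall of this hairpin-protected RNA by more than 1.5-fold lies within the interval. Slc11a1, which carries iron out of the phagosome, overlapped likewise, with 48.4, 46.4 and 58.9 CPM in BP marrow and 59.1, 52.6 and 44.7 CPM in PBS marrow. Of the 29, 2 genes, Ncoa4 and Trf, had libraries that did not overlap, against 5.92% of all genes. Ncoa4, the receptor that delivers ferritin for degradation, had 586, 597 and 611 CPM in BP marrow and 575, 515 and 512 CPM in PBS marrow (log2 fold change 0.16, adjusted p = 1). Trf, transferrin, had 157, 149 and 108 CPM in BP marrow and 165, 158 and 179 CPM in PBS marrow (log2 fold change -0.28, adjusted p = 1). Transferrin is also made by hepatocytes, whose markers were near 0 in BP mouse 3, its lowest library, and their part in the value was not tested.

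Heme breakdown and antioxidant genes gave no call either. Hmox1, heme oxygenase 1, which opens the heme ring and frees its iron, had 174, 121 and 168 CPM in BP marrow and 146, 112 and 140 CPM in PBS marrow. BP mouse 2 lay among the PBS mice, and the log2 fold change was 0.22 (95% interval -0.12 to 0.56). The 15 tested genes of heme breakdown and transport had a median log2 fold change of 0.02. The 25 antioxidant and ferroptosis defense genes had one of 0.05, and 22 of their intervals lay within 1.5-fold. Of these, Nqo1, an NRF2 target that reduces quinones, had 14.6, 18.4 and 18.3 CPM in BP marrow and 12.8, 11.7 and 14.6 CPM in PBS marrow. It was the only member with an unadjusted p under 0.05 (log2 fold change 0.39, 95% interval 0.07 to 0.72, adjusted p = 1), and 1 of the BP libraries lay within the PBS range. On the higher side 0.651% of all genes had such a p.

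**Figure D2:**
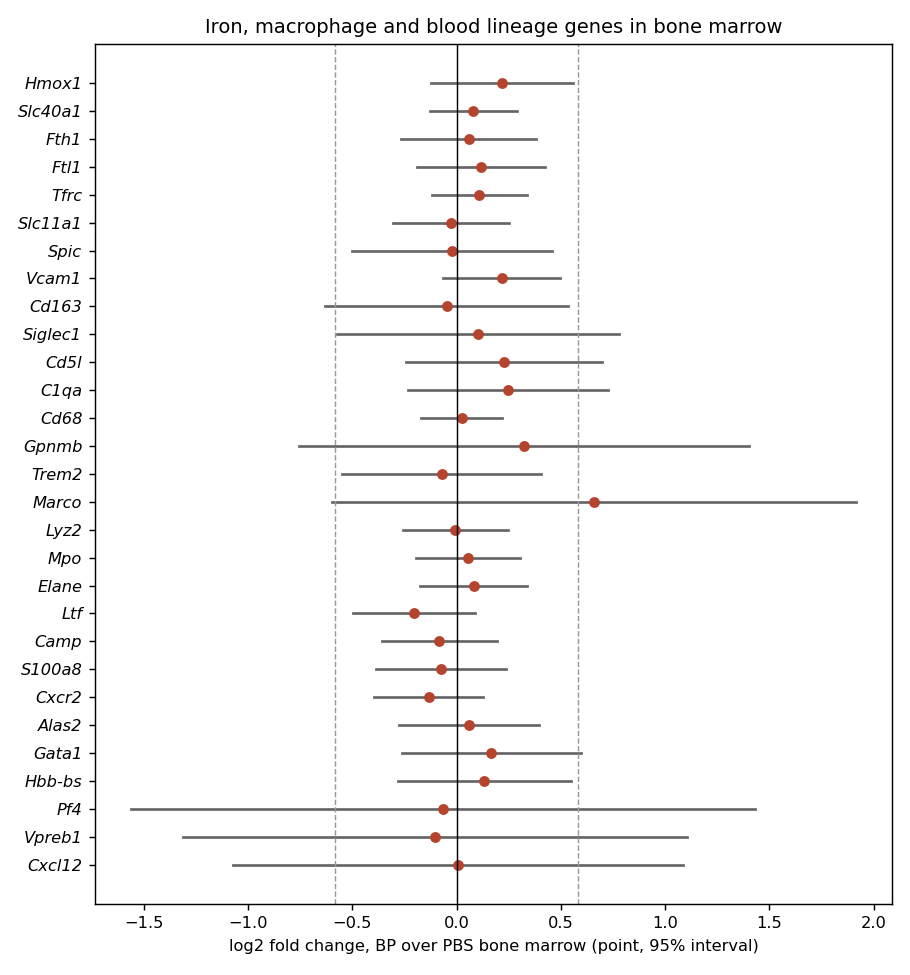
Log2 fold change of BP over PBS marrow (horizontal axis) for 29 iron, macrophage and lineage genes, as points with 95% intervals from 3 mice a group; dashed lines mark 1.5-fold in either direction. Every interval spans 0, and those of Gpnmb, Marco, Pf4, Vpreb1 and Cxcl12 are the widest.

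Macrophage genes, the class that takes up particles in many organs, gave no call in marrow. Of 22 marrow macrophage genes, 16 lay above 0 and 6 below, with a median log2 fold change of 0.14 and no unadjusted p under 0.05. That median was 0.03 without PBS mouse 2 and 0.26 without PBS mouse 3, so single PBS libraries moved it. Vcam1, the adhesion molecule of macrophages that tether red cell precursors, had 137, 129 and 142 CPM in BP marrow and 124, 93.3 and 133 CPM in PBS marrow (log2 fold change 0.22, 95% interval -0.06 to 0.50). C1qa, a complement chain made by tissue macrophages, had 29.98, 29.6 and 32.5 CPM in BP marrow and 24.6, 18.2 and 34.96 CPM in PBS marrow. PBS mouse 2 was the lowest library for both genes. Spic, the transcription factor of iron-recycling macrophages, had 8.72, 8.46 and 9.75 CPM in BP marrow, inside the 10.2, 6.08 and 11.1 CPM of PBS marrow.

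The 28 lysosome and lipid-laden macrophage genes had a median log2 fold change of -0.001, and 25 of them (89.3%) had an interval within 1.5-fold. Lyz2, the myeloid lysozyme, had 5916, 5254 and 5508 CPM in BP marrow and 5714, 5395 and 5628 CPM in PBS marrow (log2 fold change -0.005, 95% interval -0.26 to 0.25). Cd68, a lysosomal protein of macrophages, had 42.7, 40.5 and 41.7 CPM in BP marrow and 41.2, 42.0 and 39.5 CPM in PBS marrow (log2 fold change 0.02, 95% interval -0.17 to 0.22). Gpnmb, a glycoprotein of lysosome-loaded macrophages, was more variable, with 5.93, 19.6 and 9.85 CPM in BP marrow and 10.2, 7.5 and 10.9 CPM in PBS marrow. BP mouse 2 alone was high, and without it the log2 fold change was -0.28 in place of 0.32. Apoe, a lipid carrier made by macrophages, and Ctsl, a lysosomal protease, had non-overlapping libraries with lower values in BP marrow. They were 2 of the 28, against 2.87% of all genes on the lower side. Apoe had 202, 207 and 182 CPM in BP marrow and 248, 212 and 223 CPM in PBS marrow (log2 fold change -0.21, adjusted p = 1). Among 18 scavenger and Fc receptor genes, which bind particles and opsonized material, none had an unadjusted p under 0.05. Marco lay near the detection limit, at 1.27, 0.537 and 1.58 CPM in BP marrow and 0.305, 0.582 and 1.21 CPM in PBS marrow.

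In the liver of the same mice several of these genes were called in a fit of liver alone, and these liver results were known when the marrow genes were chosen. Lyz2 had 268, 274 and 268 CPM in BP liver and 92.2, 96.8 and 92.9 CPM in PBS liver, scaled by library totals (log2 fold change 1.46, adjusted p = 0.000246). The liver log2 fold changes were 5.27 for Gpnmb (adjusted p = 0.00382), 1.42 for Vcam1 (adjusted p = 0.0166) and 1.02 for Cd68 (adjusted p = 0.038). The difference between marrow and liver, tested in a model of all 36 bulk libraries with the mouse as a block, was -1.47 for Lyz2 (95% interval -2.72 to -0.22). It was -4.81 for Gpnmb (95% interval -7.38 to -2.24), -1.19 for Vcam1 (-2.07 to -0.31) and -1.003 for Cd68 (-2.05 to 0.04). None of the 4 differences passed the adjustment over all genes (adjusted p = 1 for each). That model takes a single spread per gene over all organs. Its SE for the Lyz2 difference was 0.607, against 0.116 in marrow and 0.095 in liver in fits of single organs. The lack of a call there does not show that marrow and liver changed alike. The comparison with liver alone was added after the values were seen.

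Against the mean change of the other 5 organs (liver, spleen, lymph node, lung and tumor), the marrow change was called different for 0 of 18613 genes (edgeR, adjusted p under 0.05). The same single spread over all organs was used, so 0 calls do not show equal changes. An unadjusted p under 0.05 was reached by 211 of them, or 1.13%. Hmox1 had the log2 fold changes 0.22 in marrow, 0.30 in liver, 0.20 in spleen, 0.45 in lymph node, 0.05 in lung and -2.21 in tumor. Its marrow change exceeded the mean of the others by 0.43 (95% interval -0.06 to 0.92, adjusted p = 1), a mean that includes the tumor's low value. Ace exceeded the mean of the others by 0.49 (95% interval -0.53 to 1.51), and Gm21887 by 1.10 (95% interval -0.51 to 2.71), with neither difference called.

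**Figure D3:**
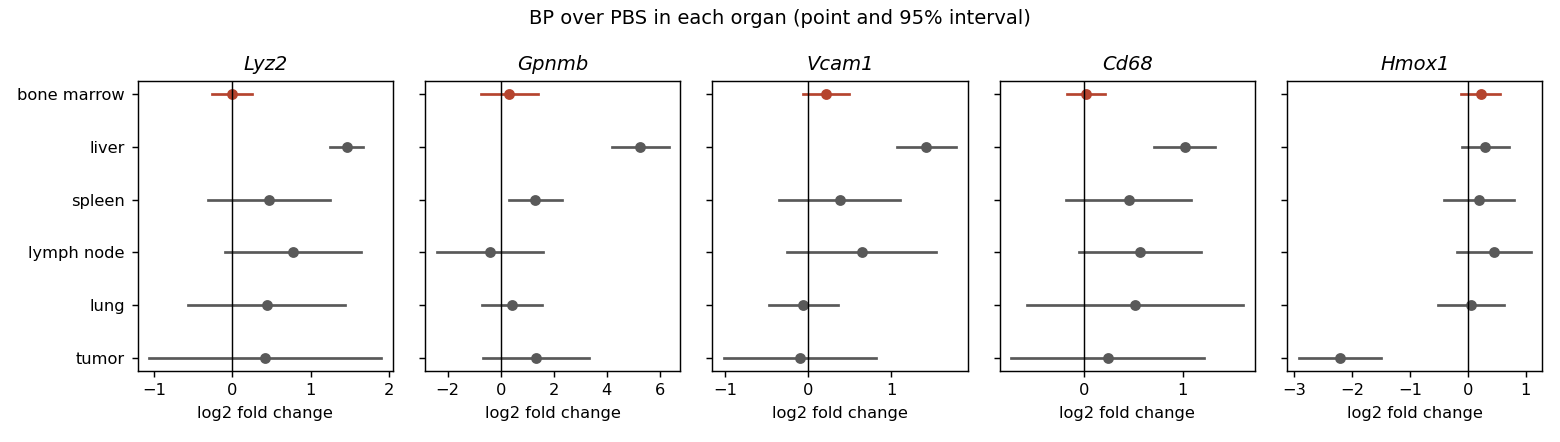
Log2 fold change of BP over PBS (horizontal axes, which differ between genes) in each of 6 organs, fitted per organ, as points with unadjusted 95% intervals from 3 mice a group, marrow in red. The marrow intervals span 0 for all 5 genes, and the liver intervals of Lyz2, Gpnmb, Vcam1 and Cd68 lie above 0.

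The neutrophil lineage, the bulk of marrow myeloid cells, was measured tightly and showed no call. The 14 genes of primary granules and precursors had a median log2 fold change of 0.05 (-0.014 without PBS mouse 2 and 0.11 without PBS mouse 1), and all 14 intervals lay within 1.5-fold. Mpo, myeloperoxidase, had 1960, 1951 and 1749 CPM in BP marrow and 2013, 1724 and 1715 CPM in PBS marrow. Elane, neutrophil elastase, had 670, 685 and 599 CPM in BP marrow and 686, 527 and 632 CPM in PBS marrow. The groups overlapped for both genes. All 18 genes of secondary and tertiary granules, which are made later in maturation, lay below 0, with a median of -0.13 and all 18 intervals within 1.5-fold. Ltf, lactoferrin, which binds iron in the secondary granule, had 4852, 4415 and 4806 CPM in BP marrow and 6299, 5147 and 4752 CPM in PBS marrow (log2 fold change -0.20, 95% interval -0.50 to 0.09). PBS mouse 1 was the highest library for Ltf, for the granule protein Ngp and for the neutrophil surface protein Cd177. Without PBS mouse 1, 11 of the 18 genes lay below 0 and the median was -0.02. In these bulk libraries fewer cells of a type and less RNA per cell cannot be told apart.

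Mature neutrophil genes had a median log2 fold change of -0.12 over 22 genes, with no unadjusted p under 0.05, and the median was -0.004 without PBS mouse 1. Cxcr2, the chemokine receptor with which neutrophils leave the marrow, had 208, 210 and 218 CPM in BP marrow and 276, 223 and 198 CPM in PBS marrow. Trem1, an activating receptor of neutrophils and monocytes, had 32.9, 33.0 and 46.2 CPM in BP marrow and 33.5, 28.4 and 29.5 CPM in PBS marrow (log2 fold change 0.29, 95% interval -0.02 to 0.60). BP mouse 3 set that difference. Of 16 tested mast cell, basophil and eosinophil genes, 13 lay above 0 (median 0.10), and none had an unadjusted p under 0.05. Their median ran between 0.045 without PBS mouse 1 and 0.17 without BP mouse 1.

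Among the 20 monocyte genes, Ace, angiotensin-converting enzyme, had the smallest p in marrow after Gm21887 among the genes named by rule. It had 20.9, 22.8 and 21.6 CPM in BP marrow and 13.96, 14.8 and 13.1 CPM in PBS marrow. Every BP library lay above every PBS library, with a fold of 1.56 (log2 fold change 0.64 ± 0.12 SE, 95% interval 0.38 to 0.90), but the adjusted p was 0.902. Its log2 fold change lay between 0.60 and 0.69 with each library left out in turn, and it was called only when the low-count filter was dropped (adjusted p = 0.0489). In mice Ace is known in patrolling monocytes, the subset low in Ly6c, as well as in endothelium. The other 19 monocyte genes had no unadjusted p under 0.05. Ly6c2, which marks classical monocytes, had 594, 526 and 506 CPM in BP marrow and 550, 473 and 532 CPM in PBS marrow.

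A list of 15 patrolling monocyte genes was written after Ace had been seen, so its count is a description. In it 10 genes lay above 0, and 4 had both an unadjusted p under 0.05 and non-overlapping libraries with higher values in BP marrow. Over all genes, 0.651% had such a p on the higher side and 3.05% had non-overlapping higher libraries. Leaving out BP mouse 2 or PBS mouse 1 lowered the count of members with that p to 2. Leaving out any other single library lowered it to 3. In the same fits between 0.869% and 4.15% of all genes had an unadjusted p under 0.05 in either direction. The 4 members were Ace, S1pr5, Cd300e and Adgre4. S1pr5, a receptor with which these monocytes leave the marrow, had 5.00, 6.58 and 4.92 CPM in BP marrow and 3.20, 3.88 and 2.94 CPM in PBS marrow (log2 fold change 0.72 ± 0.23 SE, adjusted p = 1). Cd300e, a surface receptor of nonclassical monocytes, had 5.84, 5.10 and 5.94 CPM in BP marrow and 1.83, 3.88 and 4.14 CPM in PBS marrow. Treml4 and Cx3cr1, also of this subset, overlapped between the groups. Treml4 had 16.1, 13.4 and 16.4 CPM in BP marrow and 15.9, 12.2 and 14.1 CPM in PBS marrow, and Cx3cr1 had a log2 fold change of -0.13.

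The red cell lineage differed by less than its spread between mice. Of 18 tested hemoglobin and red cell membrane genes 17 lay above 0, with a median log2 fold change of 0.10 and all 18 intervals within 1.5-fold. Without BP mouse 3, which had the largest hemoglobin share, 6 of 18 lay above 0 and the median was -0.05. Hbb-bs, a beta globin, had 47970, 53970 and 75740 CPM in BP marrow and 49950, 53660 and 58390 CPM in PBS marrow. Globin genes have near-identical copies, between which reads may be divided. Alas2, the erythroid first enzyme of heme synthesis, had 2234, 2438 and 3364 CPM in BP marrow and 2381, 2641 and 2686 CPM in PBS marrow (log2 fold change 0.06, 95% interval -0.27 to 0.39). For both genes BP mouse 3 was the highest library and the other 2 BP mice lay within or below the PBS range.

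Erythroid progenitor and transcription factor genes lay above 0 for 17 of 20, with a median of 0.14, and the median was 0.01 without BP mouse 3 and 0.32 without BP mouse 1. Gata1, the master regulator of the erythroid program, had 94.9, 139 and 148 CPM in BP marrow and 94.8, 109 and 136 CPM in PBS marrow. BP mouse 1 lay with the lowest PBS mouse, and the other BP mice lay above all PBS mice. Of 14 heme synthesis genes 12 lay above 0 (median 0.08), with all intervals within 1.5-fold. Without BP mouse 3, 6 of the 14 lay above 0 (median -0.038), and without BP mouse 1 the median was 0.24. The 22 megakaryocyte and platelet genes had a median of -0.04, and the intervals of 4 lay within 1.5-fold. Single PBS libraries turned the list, since none of the 22 lay above 0 without PBS mouse 2 (median -0.29) and 21 lay above 0 without PBS mouse 3 (median 0.22). Pf4, platelet factor 4, had 125, 129 and 94.9 CPM in BP marrow, inside the 130, 46.5 and 188 CPM of PBS marrow.

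None of the 20 stem and progenitor genes had non-overlapping libraries. In a list this short that does not set them apart from the 5.92% of all genes. Their median log2 fold change was -0.02. Kit, the stem cell factor receptor, had 65.0, 63.4 and 63.7 CPM in BP marrow and 68.9, 64.7 and 60.4 CPM in PBS marrow (95% interval of the log2 fold change -0.21 to 0.19). Cell cycle genes lay above 0 for 30 of 32, with a median of 0.07 and all 32 intervals within 1.5-fold. Without BP mouse 2, 14 of 32 lay above 0. No member of the list had non-overlapping libraries, against 5.92% of all genes. Outside the list, Ccne2, cyclin E2, was named for its small p among non-overlapping genes. It had 98.1, 100 and 92.4 CPM in BP marrow and 66.5, 73.4 and 86.2 CPM in PBS marrow. Its log2 fold change was 0.36 ± 0.11 SE (adjusted p = 1). Top2a, a topoisomerase of dividing cells, had 692, 747 and 639 CPM in BP marrow and 630, 620 and 670 CPM in PBS marrow. Cytosolic ribosomal protein genes lay above 0 for 65 of 70 (median 0.09), and for 48 of 70 without PBS mouse 1.

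**Figure D4:**
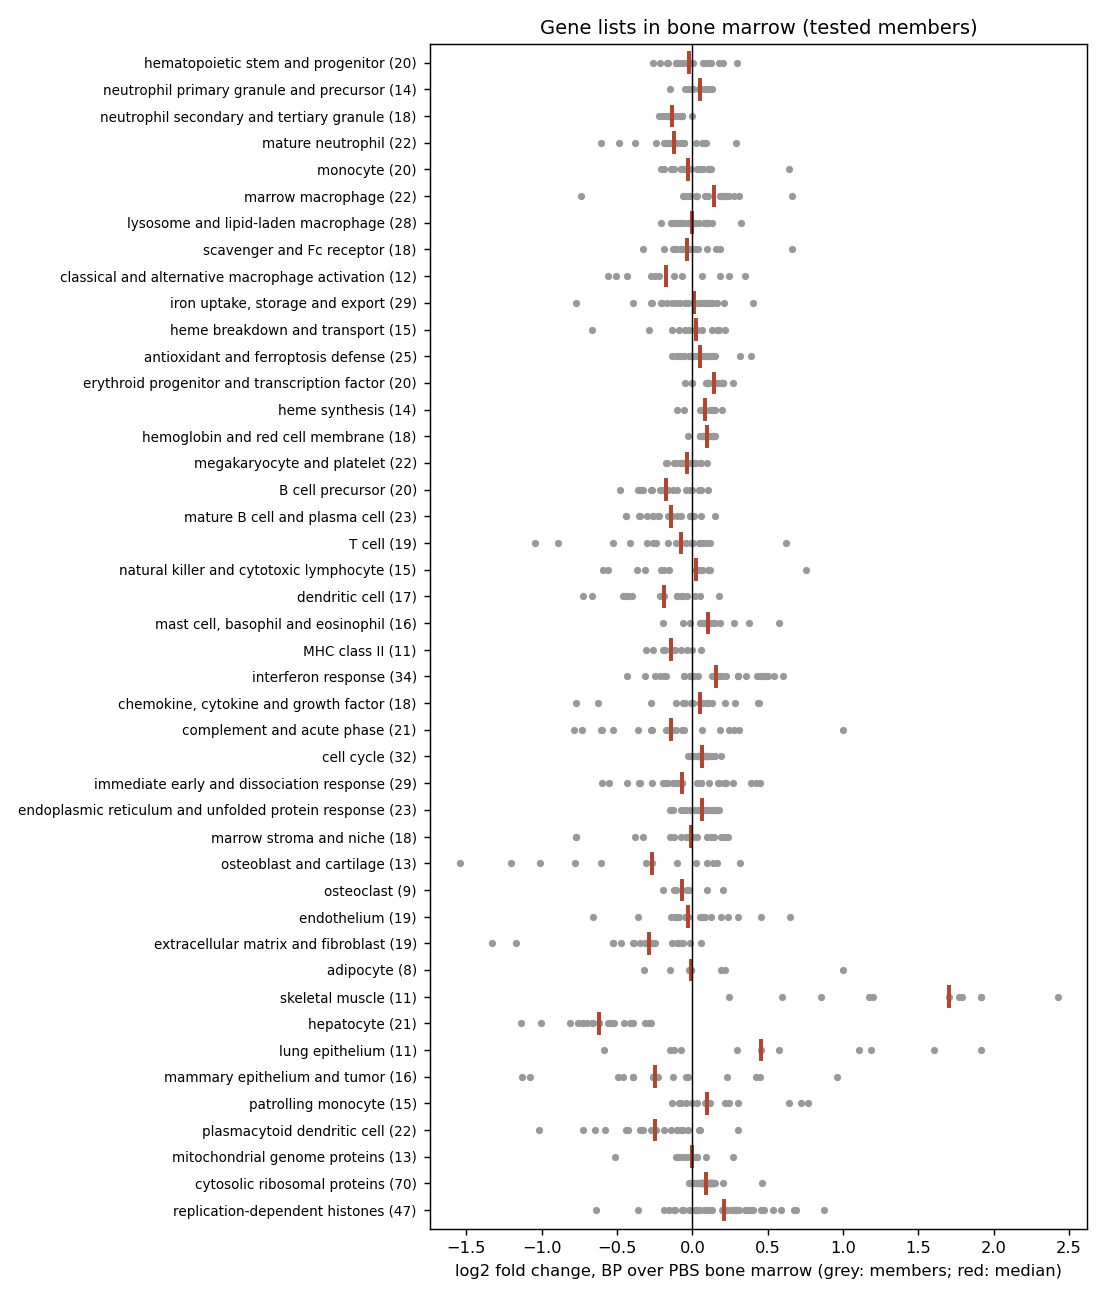
Log2 fold change of BP over PBS marrow (horizontal axis) for the tested members of each gene list (grey points, number in brackets) with the list median (red). Granule, erythroid and cell cycle members lie close to 0, and muscle, hepatocyte, matrix and bone members spread widely.

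B lymphocyte genes varied between mice more than between groups. Of 20 B cell precursor genes 17 lay below 0 (median -0.17), but 17 lay above 0 without BP mouse 2 (median 0.12), which was low in many of them. Pax5, the transcription factor that fixes B cell identity, had 96.8, 30.7 and 78.8 CPM in BP marrow and 79.8, 113 and 68.6 CPM in PBS marrow. Rag1, which cuts the immunoglobulin genes for rearrangement, had 79.5, 11.1 and 54.6 CPM in BP marrow and 50.0, 59.8 and 38.3 CPM in PBS marrow. BP mouse 2 was the lowest library for both genes, while BP mouse 1 was at or near the top. Of 23 mature B cell and plasma cell genes 20 lay below 0 (median -0.14), and none had an unadjusted p under 0.05. Without BP mouse 2, 15 of the 23 lay above 0 (median 0.022), and the median was -0.019 without PBS mouse 2 and -0.295 without BP mouse 3. Sdc1, the plasma cell surface proteoglycan, had 20.4, 18.4 and 23.1 CPM in BP marrow and 23.8, 26.96 and 23.4 CPM in PBS marrow, without overlap (log2 fold change -0.26, adjusted p = 1). It was 1 of the 23 genes, against 2.87% of all genes with non-overlapping lower libraries.

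T and natural killer cell genes gave no call. Of 19 T cell genes 12 lay below 0 (median -0.076), and the median was -0.24 without BP mouse 2. In 1 of the 19 the libraries did not overlap with higher values in BP marrow and in 1 with lower values, against 3.05% and 2.87% of all genes. Cd8b1, a chain of the CD8 coreceptor, was the only one of the 19 with an unadjusted p under 0.05. It lay on the lower side, where 0.587% of all genes had such a p. Cd8b1 had 0.423, 0.939 and 0.464 CPM in BP marrow and 1.14, 1.75 and 0.979 CPM in PBS marrow (log2 fold change -1.04, adjusted p = 1). Its partner chain Cd8a had 0.762, 3.09 and 0.929 CPM in BP marrow and 3.05, 3.10 and 3.01 CPM in PBS marrow. BP mouse 2 lay within the PBS range for Cd8a and the other 2 BP mice below it. Cd3e, a chain of the T cell receptor complex, overlapped between the groups, at 4.15, 4.63 and 5.48 CPM in BP marrow and 4.12, 4.20 and 5.05 CPM in PBS marrow. Of 15 tested natural killer and cytotoxic lymphocyte genes 8 lay above 0 (median 0.024), and 3 lay above 0 without BP mouse 1 (median -0.19). Txk, a kinase of T and natural killer cells, was the one with an unadjusted p under 0.05, at 3.30, 2.62 and 2.42 CPM in BP marrow and 4.12, 4.59 and 3.84 CPM in PBS marrow, without overlap (log2 fold change -0.59, adjusted p = 1). On the lower side 0.587% of all genes had such a p, and 2.87% had non-overlapping libraries.

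Dendritic cell genes gave no call. Of 17 tested, 14 lay below 0 (median log2 fold change -0.19), and 4 had an unadjusted p under 0.05 on the lower side, against 0.587% of all genes. With each library left out in turn, that count ran between 1 (without PBS mouse 2) and 5 (without PBS mouse 3). Such a p in either direction was reached by 1.72% of all genes without PBS mouse 2 and 4.15% without PBS mouse 3. With all libraries it was 1.24%. The 4 members in the full fit were Klk1, Cd209a, Siglech and Ccr9. Klk1, a kallikrein protease, had 4.57, 5.03 and 5.20 CPM in BP marrow and 7.10, 10.3 and 7.01 CPM in PBS marrow (log2 fold change -0.73 ± 0.21 SE, adjusted p = 1). Siglech, a receptor of plasmacytoid dendritic cells, had 37.9, 34.1 and 35.3 CPM in BP marrow and 51.6, 56.6 and 35.5 CPM in PBS marrow. PBS mouse 3 lay just above the middle BP library. Cd209a, a lectin of monocyte-derived dendritic cells, had 4.32, 4.03 and 5.57 CPM in BP marrow and 6.18, 8.99 and 6.78 CPM in PBS marrow.

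A list of 22 plasmacytoid dendritic cell genes was written after Klk1 and Siglech had been seen, so its counts are a description. In it 19 genes lay below 0 (median -0.25), 7 had an unadjusted p under 0.05 on the lower side, against 0.587% of all genes, and 5 had non-overlapping lower libraries, against 2.87%. With single libraries left out, the count of 7 was 2 without PBS mouse 2, 3 without BP mouse 2 and 9 without BP mouse 1. Over all genes, an unadjusted p under 0.05 in either direction was reached by 1.72%, 1.2% and 3.39% in those fits, respectively. With all libraries it was 1.24%. Lifr, the receptor of leukemia inhibitory factor, had 13.6, 11.5 and 9.85 CPM in BP marrow and 20.3, 16.8 and 15.1 CPM in PBS marrow (log2 fold change -0.58 ± 0.16 SE, adjusted p = 1). Pacsin1, an endocytic adaptor, had 7.03, 5.97 and 4.83 CPM in BP marrow and 8.32, 11.8 and 7.76 CPM in PBS marrow. Irf7, which plasmacytoid dendritic cells need for interferon production and which interferon also induces, lay the other way, at 25.5, 30.4 and 25.2 CPM in BP marrow and 20.4, 23.6 and 21.6 CPM in PBS marrow (log2 fold change 0.31, adjusted p = 1). Of 34 interferon response genes 23 lay above 0 (median 0.16). At an unadjusted p under 0.05, 2 were higher, Irf7 and Ifi35, against 0.651% of all genes. The median of these 34 was -0.003 without BP mouse 2 and 0.245 without BP mouse 3. MHC class II genes lay below 0 for 10 of 11 (median -0.14). Without PBS mouse 2, 6 of the 11 lay above 0 (median 0.09), and without BP mouse 2 the median was -0.038. Without PBS mouse 1 the median was -0.30, with 4 genes at an unadjusted p under 0.05, against 0.869% of all genes in that fit. H2-Ab1, a class II chain, had 79.2, 65.3 and 76.2 CPM in BP marrow and 61.2, 100.7 and 101.9 CPM in PBS marrow.

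Inflammatory and stress genes gave no call. The 18 tested chemokine, cytokine and growth factor genes had a median log2 fold change of 0.05, with no unadjusted p under 0.05. Il1b had 35.7, 48.2 and 34.2 CPM in BP marrow and 49.9, 32.6 and 31.0 CPM in PBS marrow, and Tnf had 8.38, 7.11 and 6.78 CPM in BP marrow and 11.5, 8.66 and 6.78 CPM in PBS marrow. Of 12 classical and alternative macrophage activation genes 8 lay below 0 (median -0.17, and -0.10 without PBS mouse 1). Arg1, an arginase of alternatively activated macrophages that hepatocytes also make, had 5.00, 4.63 and 0.279 CPM in BP marrow and 4.35, 5.30 and 5.20 CPM in PBS marrow. The 23 genes of the endoplasmic reticulum and unfolded protein response had a median of 0.07. Its chaperones Canx and Hspa5 had non-overlapping libraries with higher values in BP marrow, against 3.05% of all genes on that side. Hspa5 had 483, 491 and 497 CPM in BP marrow and 405, 461 and 475 CPM in PBS marrow. Its log2 fold change was 0.13 (adjusted p = 1). The 29 immediate early and dissociation response genes had a median of -0.07 and no unadjusted p under 0.05. Their median ran between -0.13 and 0.021 with single libraries left out.

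None of 18 stroma and niche genes had non-overlapping libraries. In a list this short that does not set them apart from the 5.92% of all genes. Cxcl12, which holds stem cells and B cell precursors in the niche, had 221, 238 and 177 CPM in BP marrow and 234, 105.5 and 294 CPM in PBS marrow (log2 fold change 0.005, 95% interval -1.07 to 1.08). The 18 stroma and niche genes had a median of -0.01, with 4 intervals within 1.5-fold, and medians of -0.24 without PBS mouse 2 and 0.13 without PBS mouse 3. PBS mouse 2 had the lowest summed stromal level and also the lowest Pf4. Extracellular matrix and fibroblast genes lay below 0 for 18 of 19 (median -0.29), and 2 of them, Lum and Mmp13, had an unadjusted p under 0.05 on the lower side, against 0.587% of all genes. In 3 the libraries did not overlap, against 2.87% of all genes. Without PBS mouse 2 the count at that p was 9 and the median -0.48, and without BP mouse 3 they were 1 and -0.19. Of all genes, 1.72% without PBS mouse 2 and 1.93% without BP mouse 3 had an unadjusted p under 0.05 in either direction. Lum, a collagen-binding proteoglycan, had 1.02, 0.470 and 0.279 CPM in BP marrow and 1.91, 1.23 and 1.36 CPM in PBS marrow (log2 fold change -1.33, adjusted p = 1). Col1a1, the main bone collagen, had 10.7, 8.25 and 34.1 CPM in BP marrow and 20.2, 78.0 and 21.4 CPM in PBS marrow, a spread within the PBS group larger than the difference.

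Markers of other tissues differed between single libraries. All 21 hepatocyte genes lay below 0 (median -0.62), a value set by BP mouse 3, without which the median was -0.07. Their summed level was near 0 in BP mouse 3 only. The 11 tested skeletal muscle genes lay above 0 (median 1.70), and their median ran between 1.11 and 3.26 with single libraries left out. Of the 11, 2 had an unadjusted p under 0.05 on the higher side, against 0.651% of all genes. Acta1, skeletal actin, had 0.254, 5.64 and 7.99 CPM in BP marrow and 3.74, 0.323 and 0 CPM in PBS marrow, so BP mice 2 and 3 and PBS mouse 1 had the higher muscle signal. Sftpc, a surfactant protein of lung epithelium, had 16.1, 24.7 and 64.5 CPM in BP marrow and 0.0763, 15.7 and 18.5 CPM in PBS marrow. Of 16 mammary epithelium and tumor genes 12 lay below 0 (median -0.25), with a median of -0.074 without PBS mouse 1 and -0.40 without PBS mouse 2. Krt8, an epithelial keratin, had 1.35, 1.61 and 1.49 CPM in BP marrow and 5.04, 2.39 and 2.41 CPM in PBS marrow (log2 fold change -1.13, adjusted p = 1), with PBS mouse 1 the highest. The part that RNA of other tissues has in the marrow values was not tested.

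**Figure D5:**
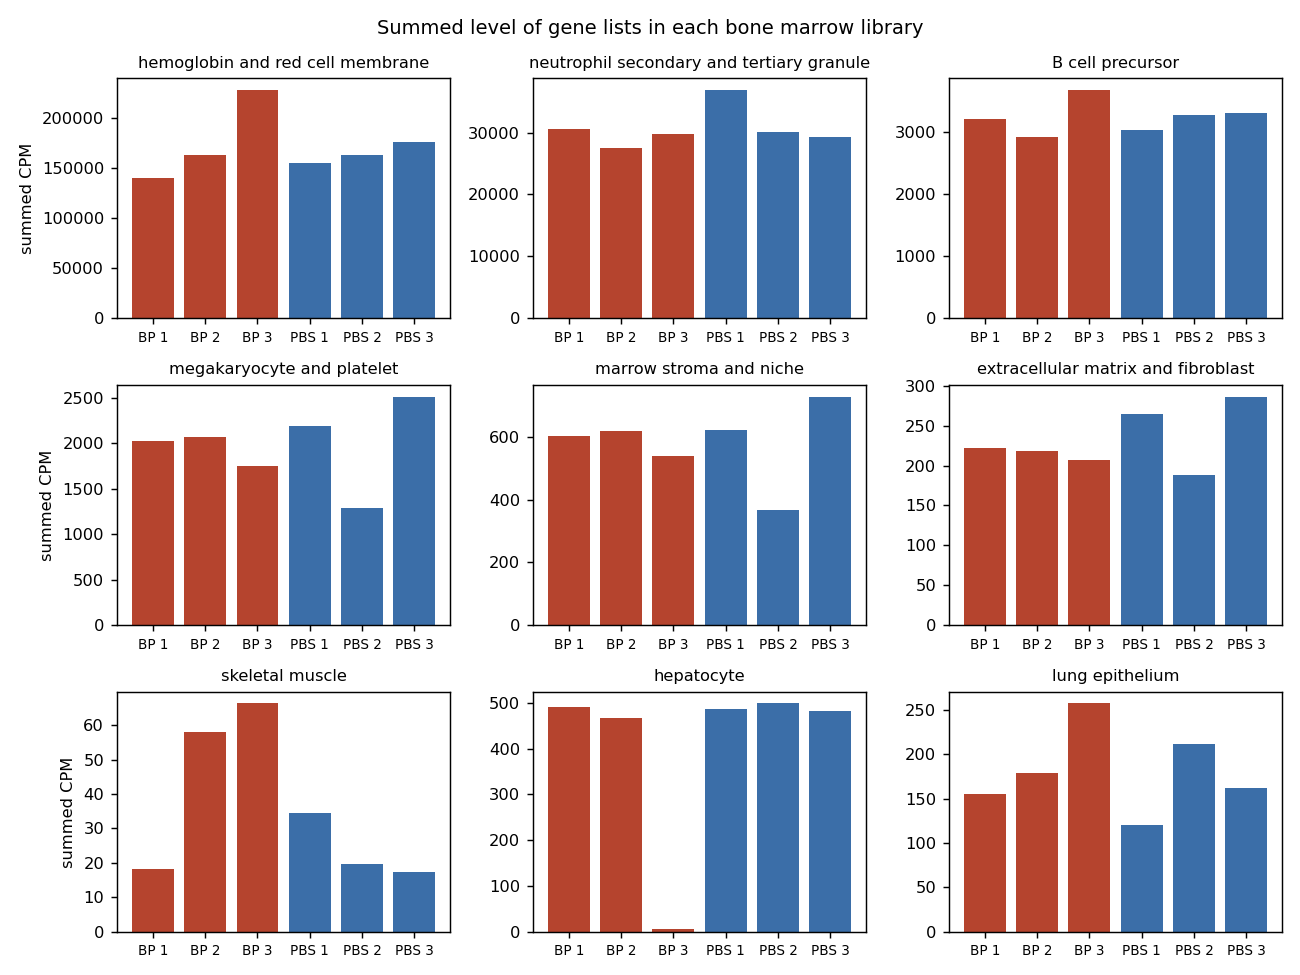
Summed CPM (vertical axes, from 0) of 9 gene lists in each of the 6 marrow libraries, BP mice in red and PBS mice in blue. BP mouse 3 lacks the hepatocyte signal seen in the other 5 libraries, BP mouse 3 has the highest hemoglobin and lung sums, and PBS mouse 2 has the lowest megakaryocyte and stromal sums.

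The remaining named genes were those with the smallest unadjusted p among genes whose libraries did not overlap, up to 12 in each direction. Uncalled genes named by Gm, Rik or a gene number, pseudogenes, and immunoglobulin or T cell receptor segments were left out of this choice. Gm21887 was the only one called. On the higher side Tuft1 had 8.55, 9.06 and 10.8 CPM in BP marrow and 6.48, 4.91 and 7.31 CPM in PBS marrow. Traip, a ubiquitin ligase of the replication machinery, had 26.9, 30.7 and 28.2 CPM in BP marrow and 21.2, 21.6 and 25.8 CPM in PBS marrow. Usp37, Trmt11, Zfp607a, Ptger1, Adal and Tsr1 completed the higher group, with log2 fold changes between 0.27 and 0.66. On the lower side Rnase6, an antimicrobial ribonuclease, had 22.9, 18.9 and 20.5 CPM in BP marrow and 25.4, 29.8 and 24.0 CPM in PBS marrow. Rnf122, a ubiquitin ligase, had 4.40, 3.56 and 2.60 CPM in BP marrow and 6.48, 6.46 and 5.12 CPM in PBS marrow (log2 fold change -0.77 ± 0.24 SE). Idua, a lysosomal enzyme that degrades glycosaminoglycans, had 8.81, 8.72 and 7.80 CPM in BP marrow and 10.7, 12.4 and 10.7 CPM in PBS marrow. Btd, Vangl2, Zfhx2, Rubcnl and Ino80dos were the others. Each of these had an adjusted p of 1.

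Ugt1a2 fell outside the rule because of its low level and was chosen after its values were seen. It encodes an enzyme of the family that conjugates bilirubin and other compounds with glucuronic acid. It had 1.52, 1.88 and 3.25 CPM in BP marrow and was listed at 0 in all 3 PBS libraries, where 3 counts correspond to between 0.198 and 0.231 CPM. The adjusted p was 0.0865 in edgeR and 0.000171 in DESeq2. Genes of this locus share exons, so the assignment of reads among them is uncertain.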

How the data were processed

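RNA-seq was done on bulk bone marrow of 6 mice, 3 BP and 3 PBS. The authors deposited estimated counts (RSEM expected counts) per gene in one table of 49 libraries. Per the submitters' processing notes, FastQC 0.11.9, cutadapt 3.5, STAR 2.7.9a and RSEM 1.3.1 were used with the mm10 build, and the strand setting is not given in the sources used here. The counts were rounded to whole numbers, and 6.08% to 6.9% of all values of a marrow library, zeros included, were not whole before that. No row without a gene name was present. Gene names and positions came from GENCODE M21 (GRCm38).

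Genes were kept by filterByExpr with a minimum count of 10, scaled by TMM and tested with edgeR 4.0.16 (R 4.3.3; quasi-likelihood test, robust estimate of the spread, two-sided, Benjamini-Hochberg adjustment over all genes, threshold 0.05). The fit held the 6 marrow libraries and no covariate. CPM values are TMM-scaled, and each standard error and 95% interval comes from the fit. DESeq2 1.42.0 was an alternative. The comparison with other organs used the 36 bulk libraries with the mouse as a block. Shares of counts were compared by an exact permutation test. The scripts were tested on simulated data.

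Named genes were the 12 per direction with the smallest p among non-overlapping genes of mean log2 CPM of at least 2. Uncalled genes named by Gm, Rik or a gene number, pseudogenes, and immunoglobulin or T cell receptor segments were not eligible. Also named were a panel of 29 genes, and from each list its highest member and the 2 with the smallest p. The members and lists were chosen with earlier results of these data known. The patrolling monocyte and plasmacytoid dendritic cell lists were written after the marrow values were seen. The replicates are separate mice, no 2 libraries agreed within sampling noise (lowest chi-square per degree of freedom 9.39 within a group), and the depth per library is given above as total counts. Libraries of nanoparticle-associated cells entered no test.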

Additional observations from a re-analysis of the deposited data

How the results depend on the processing

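The number of called genes depended on the processing. Against 1 higher and 0 lower, DESeq2 called 4 (2 higher, 2 lower), library totals alone 2 (2 higher), no low-count filter 14 (8 higher, 6 lower), and a spread shared over the 36 bulk libraries 0. The non-robust spread, added after the data were seen, called 0, with 184 genes at an unadjusted p under 0.05. Leaving out one library at a time gave 0 to 2 called genes (0 to 1 higher, 0 to 1 lower), and leaving out BP mouse 3 and PBS mouse 1 together gave 2 (0 higher, 2 lower). The replicate block called 2 genes (1 higher, 1 lower). The replicate numbers mark different mice. After each group's mean was subtracted gene by gene, the deviations correlated at 0.056, -0.082 and 0.032 between same-numbered mice. Between differently numbered mice they reached 0.054, and no pairing was seen. The added gene under the replicate block was Igkv17-127. RLE scaling and removal of hemoglobin and mitochondrial genes kept Gm21887 as the single call. The cause of these differences was not tested. The difference from other organs stayed at 0 genes under every alternative run.

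Alternatives were run for 96 genes, those named in the text among them, and 66 of their 1438 log2 fold changes had the other sign. With one library left out in turn, log2 fold changes ran between -0.11 and 0.19 for Fth1, -0.054 and 0.20 for Ftl1, -0.15 and 0.065 for Slc11a1, -0.25 and 0.14 for Spic, -0.36 and 0.10 for Cd163, -0.20 and 0.34 for Siglec1, -0.001 and 0.045 for Cd68, -0.28 and 0.64 for Gpnmb, -0.19 and 0.066 for Trem2, and -0.059 and 0.027 for Lyz2. They ran between -0.016 and 0.16 for Elane, -0.16 and 0.022 for Camp, -0.15 and 0.055 for S100a8, -0.24 and 0.001 for Cxcr2, -0.15 and 0.17 for Alas2, -0.094 and 0.26 for Hbb-bs, -0.45 and 0.40 for Pf4, -0.59 and 0.23 for Vpreb1, and -0.32 and 0.32 for Cxcl12. For Alb they ran between -0.929 and 0.049, for Cd3e -0.029 and 0.19, for Gm47283 -0.008 and 0.429, for Il1b -0.12 and 0.306, for Kit -0.059 and 0.028, for Ly6c2 -0.014 and 0.103, for Pax5 -0.692 and 0.001, and for Rag1 -0.623 and 0.435. With BP mouse 3 and PBS mouse 1 both left out, they were -0.17 for Fth1, -0.077 for Ftl1, 0.006 for Trem2, -0.009 for Marco, 0.009 for Lyz2, 0.035 for Camp, 0.072 for S100a8, -0.20 for Alas2, -0.079 for Gata1, -0.15 for Hbb-bs, 0.11 for Pf4, 0.031 for Alb, -0.081 for Cd3e, -0.131 for Gm47283 and 0.028 for Kit. Marco and Gata1 kept their sign with any one library left out and turned with both. With the replicate block they were 0.019 for Spic and 0.12 for Pf4. With library totals alone they were -0.002 for Cd68 and -0.008 for Cxcl12, and Cxcl12 was -0.002 with DESeq2 and -0.001 with RLE scaling. Depth limits genes near 1 CPM, such as Marco, Cd8b1 and Lum.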

Other observations

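Immunoglobulin variable segments, which differ in use between individual mice, gave some of the widest values in marrow. Of 97 tested, 50 lay above 0 and 47 below, with log2 fold changes between -4.32 and 3.35. None passed the adjusted test in the fit described, and 7 were higher and 9 lower at an unadjusted p under 0.05. Over all genes, 0.651% were higher and 0.587% lower at that p. Ighv2-6-8 had 0.762, 0.201 and 1.02 CPM in BP marrow and 22.4, 7.95 and 7.84 CPM in PBS marrow. DESeq2 called it lower (adjusted p = 0.000196). EdgeR did not (adjusted p = 1), except without the low-count filter (adjusted p = 0.00262) or with BP mouse 3 and PBS mouse 1 both left out (adjusted p = 0.0242). Other segments were also called in some settings. Igkv4-86 was called lower by DESeq2 (adjusted p = 0.0444) and by edgeR without BP mouse 3 (adjusted p = 0.00168). It was also called with BP mouse 3 and PBS mouse 1 both left out (adjusted p = 0.0119). Igkv10-96 was called lower by edgeR without PBS mouse 3 (adjusted p = 0.00373). Without the low-count filter Ighv12-3, Ighv5-6 and Ighv5-4 were called higher, and Igkv8-28 and Igkv8-30 lower. Near-identical segments can share reads. The 47 tested replication-dependent histone genes had a median log2 fold change of 0.21, with 36 above 0 and no unadjusted p under 0.05. Without BP mouse 3, 12 of 49 tested lay above 0 and the median was -0.12.

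Nnt, the mitochondrial transhydrogenase, had 16.1, 21.9 and 35.01 CPM in BP marrow and 37.1, 41.8 and 36.5 CPM in PBS marrow. The groups did not overlap (log2 fold change -0.67, adjusted p = 1), and it was called only without the low-count filter (adjusted p = 0.00644). It was chosen after its values were seen.

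Magnetically separated, nanoparticle-associated marrow cells came from the same 3 BP mice. Scaled by library totals, Slc40a1 had 146, 145 and 116 CPM in those cells, against 203, 196 and 174 CPM in the bulk marrow of BP mice. Hmox1 had 129, 95.9 and 118 CPM in the separated cells and 182, 122 and 153 CPM in bulk BP marrow. Hbb-bs had 30340, 38400 and 45630 CPM in the separated cells and 50180, 54470 and 69280 CPM in bulk BP marrow. No test was made on these values, and the separated cells were also digested and sorted.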
